A study of Mus musculus with 10 samples.

Results

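The 10 genes described here are members of the CCN family of secreted proteins, Ccn1, Ccn2, Ccn3, Ccn4 and Ccn5, and genes of the YAP-TEAD pathway, Ankrd1, Amotl2, Tead1, Yap1 and Lats2. They were named as a list and matched by symbol to the 56748 genes counted in mouse hearts, and all 10 were among the 15454 genes with enough reads to be tested. The list was chosen from the difference of Ccn2 between trained and sedentary hearts in these same libraries, to ask whether Ccn2 rose alone or together with other targets of YAP. The difference of each member between the groups is therefore given as a description, without a p-value.

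RNA was sequenced from whole hearts, ventricles and both atria together, of wild-type C57BL/6 mice. The training group consisted of 5 mice that were forced to run on a treadmill for 8 weeks, at 15 m/min for 120 min per day on 5 days per week, after a stepwise acclimatization. The sedentary group consisted of 5 mice of the same strain and age that did not train, and the mice were 8 weeks old when they were bought. There was 1 library per heart, and all mice are labelled WT (wild type). Each library held between 29461697 and 39431030 counts on genes in total, while between 94.9% and 95.6% of the counts on either strand lay on the strand used here. A list of 8 cardiomyocyte markers summed to between 41647 and 45083 transcripts per 1000000 transcripts (TPM) in the training hearts and between 41785 and 45577 TPM in the sedentary hearts, so the defining markers of the labelled tissue were abundant in every heart. In RNA from whole tissue, fewer cells of a type and less RNA per cell cannot be told apart.

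YAP, encoded by Yap1, is a coactivator that has no DNA-binding domain of its own and acts on genes through TEAD transcription factors. In the Hippo pathway the kinases LATS1 and LATS2 phosphorylate YAP and so keep it out of the nucleus, and mechanical load and cell spreading are known to release it. CCN proteins are matricellular: they are secreted, bind integrins, heparan sulfate proteoglycans and growth factors, and shape how cells respond to the matrix. Ccn1 and Ccn2, long known as Cyr61 and CTGF, are the most used readouts of YAP activity, together with Ankrd1, Amotl2 and Lats2, the last of which closes a negative feedback loop. In the heart, Ccn2 is known as a product of fibroblasts and of stressed cardiomyocytes and has been linked to fibrosis.

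The promoters of known YAP targets are shown because TEAD factors recognise a short motif in them, CATTCC or its reverse complement GGAATG. RefSeq promoter windows on GRCm38.p6, a build other than the GRCm39 of the counts, were matched for 5 of the 10 members, namely Ccn1, Ankrd1, Amotl2, Yap1 and Lats2. The 250 bases before the transcription start are printed for the 3 targets with a match to the motif, in the direction of transcription, with every match on either strand in capitals. The window of Ccn1 lies at chr3:145649986-145650235 on the minus strand, that of Ankrd1 at chr19:36119845-36120094 on the minus strand and that of Amotl2 at chr9:102717554-102717803 on the plus strand.
Ccn1: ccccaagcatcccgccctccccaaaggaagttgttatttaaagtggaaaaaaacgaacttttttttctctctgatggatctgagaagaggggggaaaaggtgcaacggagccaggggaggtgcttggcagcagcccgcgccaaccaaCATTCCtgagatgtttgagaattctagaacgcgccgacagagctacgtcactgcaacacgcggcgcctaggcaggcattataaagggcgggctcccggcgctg
Ankrd1: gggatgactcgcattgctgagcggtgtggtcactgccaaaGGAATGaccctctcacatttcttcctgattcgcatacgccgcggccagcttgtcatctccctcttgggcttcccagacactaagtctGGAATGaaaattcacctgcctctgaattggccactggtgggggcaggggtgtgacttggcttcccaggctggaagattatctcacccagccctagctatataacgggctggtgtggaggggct
Amotl2: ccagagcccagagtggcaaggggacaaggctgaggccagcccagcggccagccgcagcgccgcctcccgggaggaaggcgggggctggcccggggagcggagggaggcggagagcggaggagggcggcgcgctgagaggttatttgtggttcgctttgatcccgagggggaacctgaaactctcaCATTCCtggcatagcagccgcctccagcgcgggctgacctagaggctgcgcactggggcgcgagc
In Ccn1 the motif lay 103 to 98 bases before the start, and in Amotl2 65 to 60 bases before it. Ankrd1 held 2 matches, 210 to 205 and 123 to 118 bases before the start, both on the other strand. Yap1 held 1 match as well, 141 to 136 bases before its start, whereas neither of the 2 windows of Lats2 held any. In all, 4 of the 6 windows of members (66.7%) held the motif, compared with 4153 of 32851 windows of all genes (12.6%) and 6 of 18 windows (33.3%) of a signature of YAP and TAZ targets that includes 5 of the members. The SMAD motif CAGACA, searched on both strands, was present in the Ankrd1 window alone, 137 to 132 bases before the start, and in 17.1% of all windows. It overlapped neither TEAD match. The CArG box bound by SRF was found in none of the 6 windows and in 1.47% of all windows. A match of letters is a description and not a binding site.

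The members differed widely in abundance. Levels were compared per transcript length, as TPM from RSEM averaged over the 10 hearts. Ankrd1, which encodes the cardiac ankyrin repeat protein of the sarcomeric I-band and the nucleus, was by far the most abundant at 950.4 ± 246 TPM (SD, n = 10), above 99.6% of all tested genes. Ccn2 followed at 142 ± 43.8 TPM and lay above 96.6% of tested genes. The TEAD factor Tead1 was at 34.6 ± 2.65 TPM, Yap1 at 28.5 ± 2.48 TPM, Ccn1 at 27.9 ± 3.48 TPM and Amotl2, which encodes an angiomotin that tethers YAP at cell junctions, at 22.1 ± 3.40 TPM. The kinase gene Lats2 was at 11.0 ± 1.16 TPM. The remaining CCN genes were the scarcest, with Ccn3 at 5.88 ± 1.94 TPM, Ccn5 at 4.73 ± 1.26 TPM and Ccn4 at 1.12 ± 0.347 TPM. Thus Ccn2 was the leading CCN transcript of the heart in each of the 10 libraries, and Ccn4 lay above only 22.4% of tested genes.

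**Figure D1:**
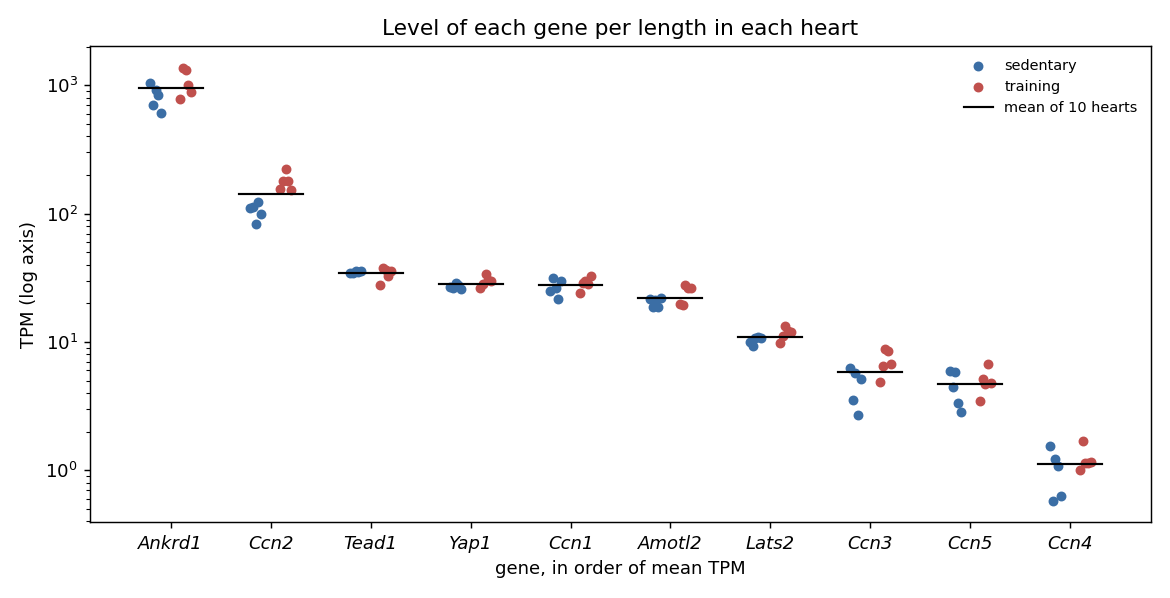
Level of each member in each heart, in TPM on a logarithmic axis, in the order of the mean over 10 hearts (black bars), with sedentary hearts in blue and training hearts in red. Ankrd1 and Ccn2 stand above the other 8 members, and the points of Yap1 and Ccn1 lie at the same height.

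The order of these levels was tested between neighbours with an exact two-sided sign-flip permutation test of the log2 TPM difference over the 10 hearts. For 7 of the 9 neighbouring pairs the same gene was higher in 10 of 10 hearts, with an adjusted p of 0.00251 and an unadjusted p of 0.00195, which is the smallest these flips can give. Yap1 and Ccn1 did not differ beyond their spread (6 of 10 hearts, mean log2 ratio 0.03 ± 0.19 SD, exact adjusted p = 0.572), and neither did Ccn3 and Ccn5 (7 of 10 hearts, mean log2 ratio 0.28 ± 0.43 SD, exact adjusted p = 0.0769). The span of Lats2 overlaps those of the same-strand genes Gm49361 and Gm63517, and the span of Tead1 that of Gm55995. Reads that fall on several genes are dropped by the STAR counts but shared out by RSEM. Whether these genes share exons, and so lose reads, was not checked. When STAR counts were divided by length instead, Lats2 took its place below Ccn5, from which it did not differ (exact adjusted p = 0.729), and the other genes kept their order.

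Levels of 1 gene were compared between the groups in counts per 1000000 counts of the library after TMM scaling (CPM). Between the groups, Ccn2 was the sole member whose training hearts all lay above all sedentary hearts. Of the 10 members 1 passed an FDR below 0.1 as higher (Ccn2) and 0 as lower, in DESeq2 as well, where edgeR's quasi-likelihood test called 2.75% of all tested genes higher and 4.26% lower. Groups without overlap in this direction were found for 1 member and for 2.12% of all tested genes. Since the list was chosen on this contrast, nothing is read from these counts. The fold changes of the members ranged from −0.09 for Tead1 to 0.66 for Ccn2 on the log2 scale, with 8 above 0 and 2 below, and the median over all tested genes was 0.00026.

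**Figure D2:**
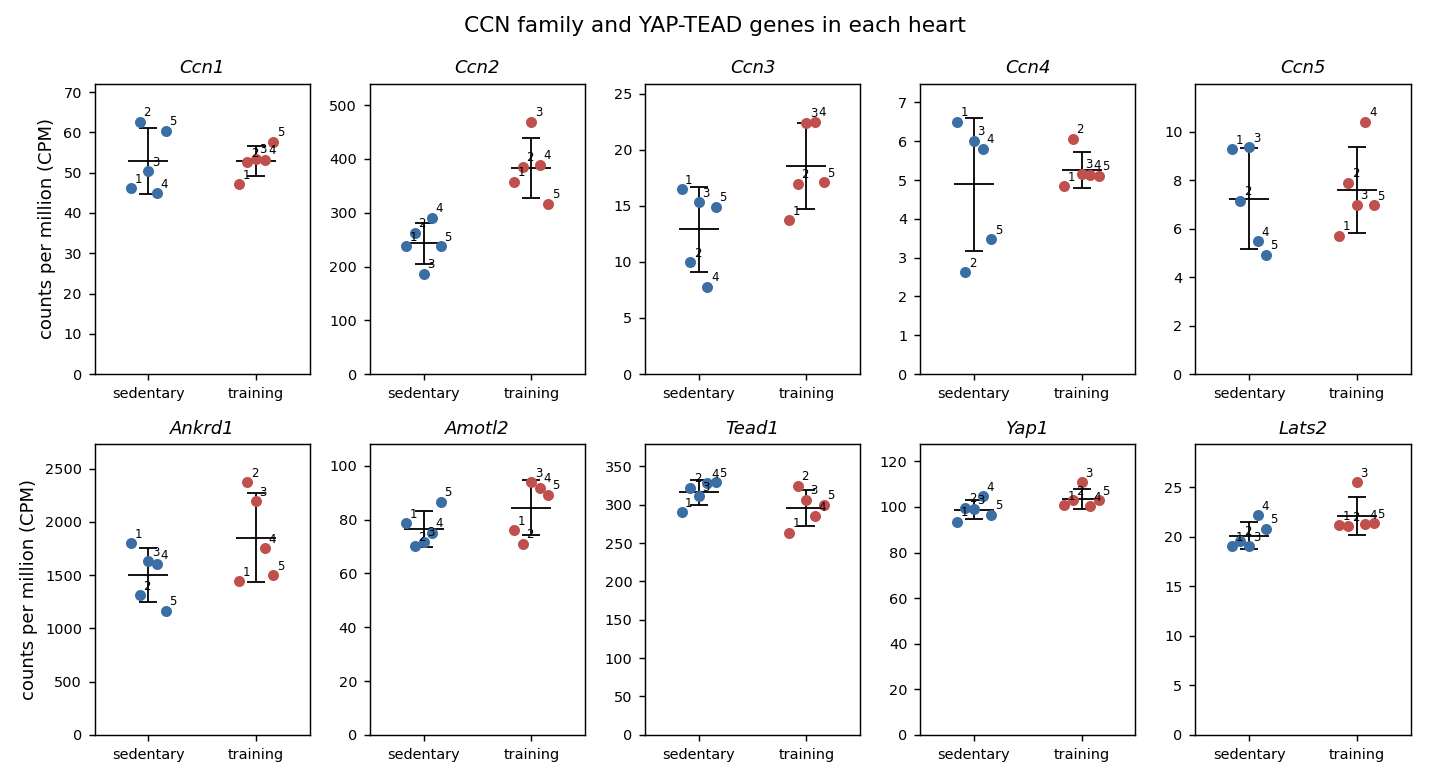
CPM of each member in each heart, numbered by mouse within its group, with black bars for the mean and whiskers for the SD (n = 5 per group). Ccn2 separates the groups completely, between 187 and 291 CPM in sedentary and between 317 and 469.6 CPM in training hearts, and the groups of the other 9 members overlap.

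Ccn2 (ENSMUSG00000019997, chromosome 10 of GRCm39, 24471333 to 24474900, plus strand) encodes connective tissue growth factor. Its level was 358, 386, 469.6, 389 and 317 CPM in training hearts 1 to 5 and 238, 263, 187, 291 and 238 CPM in sedentary hearts 1 to 5. Every training heart was thus above the highest sedentary heart, although training heart 5 and sedentary heart 4 lay close to each other. The means were 384 ± 56.0 CPM and 243 ± 38.4 CPM (SD, n = 5 each), a log2 fold change of 0.66 (standard error, SE, 0.11, 95% interval 0.42 to 0.90), or 1.58-fold. Between 7021 and 17542 reads per library stood behind these values. The antisense gene Gm15270 overlaps Ccn2, and 0.521% of the reads on Ccn2 lay on the antisense strand. The study's discussion instead names Ccn2 among genes that were downregulated after forced training. That direction is opposite to the counts given here, and the reason for the difference was not tested.

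Ccn1 (ENSMUSG00000028195, chromosome 3, 145352720 to 145355738, minus strand) encodes CYR61, an angiogenic matrix protein that serum and YAP induce rapidly. It measured 47.2, 52.5, 53.5, 53.2 and 57.6 CPM in the training hearts and 46.2, 62.7, 50.4, 44.9 and 60.4 CPM in the sedentary hearts. The training values lay inside the range of the sedentary values in every heart. Its means were 52.8 ± 3.74 and 52.9 ± 8.18 CPM (SD, n = 5 each), and the 95% interval of its log2 fold change, −0.19 to 0.19, did not reach the lower bound of the interval of Ccn2.

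Ccn3 (ENSMUSG00000037362, chromosome 15, 54609012 to 54620154, plus strand) encodes NOV, which is often described as a counterpart of Ccn2 in fibrosis. It measured 13.7, 17.0, 22.4, 22.5 and 17.1 CPM in the training hearts and 16.5, 9.96, 15.3, 7.80 and 14.9 CPM in the sedentary hearts. In 4 of 5 training hearts it was above the highest sedentary heart, and training heart 1 lay among the sedentary hearts. The log2 fold change was 0.52 (SE 0.19, 95% interval 0.12 to 0.92), the closest of the other members to Ccn2, and Ccn3 did not pass the FDR threshold. It was the sole one of the other 9 members whose interval included the log2 fold change of Ccn2.

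Ccn4 and Ccn5, which encode the WNT-inducible proteins WISP1 and WISP2, were low and variable. Ccn4 (ENSMUSG00000005124, chromosome 15, 66763060 to 66795050, plus strand) measured 4.84, 6.07, 5.17, 5.14 and 5.11 CPM in the training hearts and 6.51, 2.63, 6.02, 5.80 and 3.48 CPM in the sedentary hearts. The sedentary hearts varied more, with a coefficient of variation of 35.2% compared with 8.91% in the training hearts, and held both the highest and the lowest value. Ccn5 (ENSMUSG00000027656, chromosome 2, 163662753 to 163675066, plus strand) measured 5.72, 7.90, 6.99, 10.4 and 6.97 CPM in the training hearts and 9.29, 7.15, 9.37, 5.49 and 4.93 CPM in the sedentary hearts. Its groups covered nearly the same range. The log2 fold changes were 0.10 (95% interval −0.33 to 0.53) for Ccn4 and 0.06 (95% interval −0.34 to 0.47) for Ccn5, so intervals this wide include changes of either sign. The sixth family member, Ccn6, had 23 reads over all libraries together and was not tested.

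Ankrd1 (ENSMUSG00000024803, chromosome 19, 36089352 to 36097506, minus strand), the target with 2 TEAD motifs in its promoter window, measured 1444, 2372, 2193, 1754 and 1498 CPM in the training hearts and 1798, 1311, 1632, 1603 and 1164 CPM in the sedentary hearts. Training hearts 2 and 3 were above all sedentary hearts, and the other 3 were not. Its means were 1852 ± 415 and 1501 ± 257 CPM (SD, n = 5 each), a log2 fold change of 0.30 (SE 0.14, 95% interval −0.01 to 0.61). Amotl2 (ENSMUSG00000032531, chromosome 9, 102593836 to 102610617, plus strand) measured 76.0, 71.0, 93.9, 91.9 and 89.4 CPM in the training hearts and 78.7, 70.2, 71.8, 75.1 and 86.7 CPM in the sedentary hearts. Here training hearts 3, 4 and 5 exceeded every sedentary heart, while training hearts 1 and 2 sat among them, and the log2 fold change was 0.14 (SE 0.080, 95% interval −0.03 to 0.31).

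The transcription factor and its coactivator showed small differences. Tead1 (ENSMUSG00000055320, chromosome 7, 112278522 to 112506014, plus strand) measured 263, 325, 306, 285 and 300.1 CPM in the training hearts and 290.1, 322, 311, 328 and 329 CPM in the sedentary hearts. The training hearts lay mostly at the lower end of one shared range, and the log2 fold change of −0.09 (SE 0.056, 95% interval −0.22 to 0.03) left the groups overlapping. Yap1 (ENSMUSG00000053110, chromosome 9, 7932000 to 8004661, minus strand) measured 101, 103, 111, 100.3 and 103 CPM in the training hearts and 93.5, 99.7, 99.0, 105 and 96.7 CPM in the sedentary hearts. It was the steadiest member, with a coefficient of variation of 4.11% and 4.20% within the groups, and showed a log2 fold change of 0.07 (SE 0.042, 95% interval −0.02 to 0.16). RNA levels do not report the phosphorylation or the location of YAP, by which the pathway acts.

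Lats2 (ENSMUSG00000021959, chromosome 14, 57926960 to 57995845, minus strand), both a kinase that inhibits YAP and a target of YAP, measured 21.1, 21.1, 25.5, 21.3 and 21.4 CPM in the training hearts and 19.0, 19.6, 19.1, 22.2 and 20.8 CPM in the sedentary hearts. Training heart 3 stood well above the rest, and the other training hearts lay within the sedentary range. It had a change of 0.13 on the log2 scale (SE 0.065, 95% interval −0.01 to 0.27). It was 0.08 with the RSEM expected counts, and the reason for this difference was not tested.

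The 95% intervals of 5 of the other 9 members, Ccn1, Amotl2, Tead1, Yap1 and Lats2, ended below the interval of Ccn2. Those of Ccn3, Ccn4, Ccn5 and Ankrd1 overlapped it. Among the most used targets, Ccn1 was thus in the former set and Ankrd1 in the latter. The difference of one member from another was not tested.

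**Figure D3:**
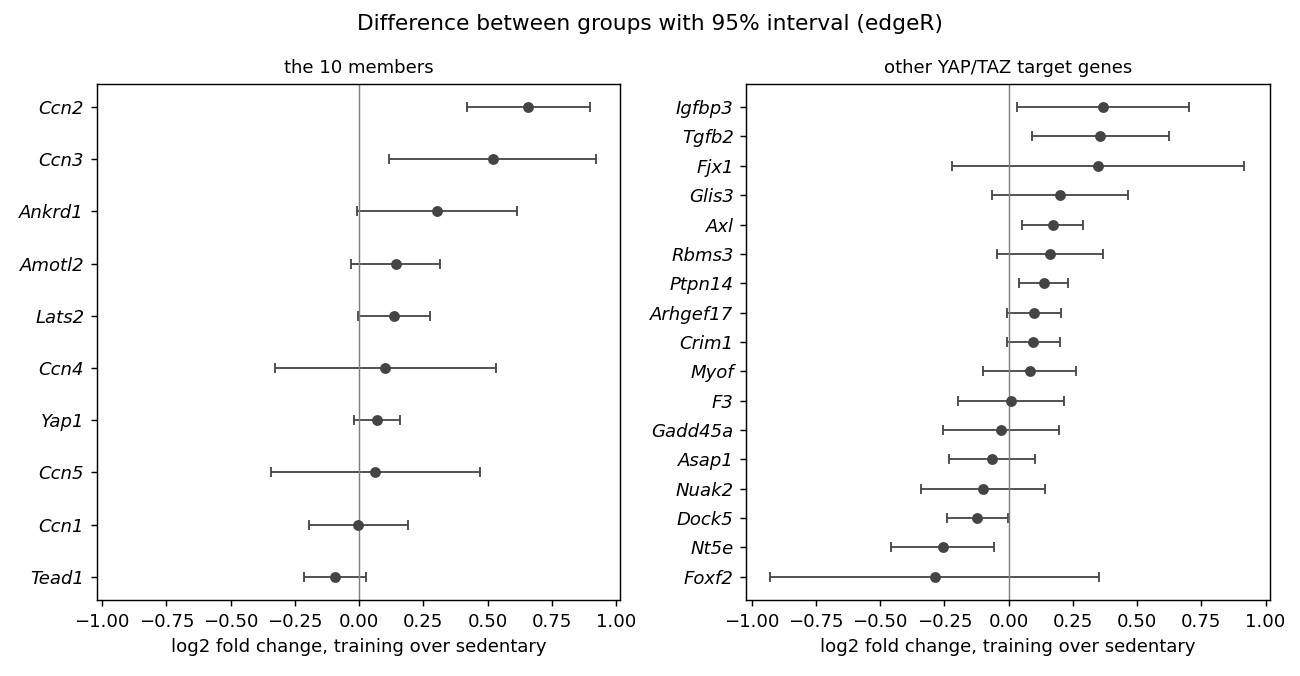
Log2 fold change of training over sedentary hearts with its 95% interval from edgeR, for the 10 members (left) and for the 17 other genes of the YAP and TAZ target signature (right). Ccn2 is at 0.66 with an interval of 0.42 to 0.90, Ccn3 follows at 0.52, and the other genes of the signature lie between −0.29 for Foxf2 and 0.37 for Igfbp3.

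A ratio within each heart does not depend on how the libraries were scaled to each other. Relative to Tead1, Ccn2 stood at between 4.32 and 6.19 in the training hearts and between 2.34 and 3.51 in the sedentary hearts, as a ratio of TPM. Relative to Yap1 it stood at between 5.19 and 6.57 in the training and between 2.89 and 4.41 in the sedentary hearts, and relative to Lats2 at between 13.0 and 16.9 and between 7.83 and 12.1. These 3 ratios did not overlap between the groups. Yap1, Tead1 and Lats2 also varied least within the groups of all members (SD of log2 CPM 0.059, 0.097 and 0.107). For Ccn1, whose log2 fold change was near 0, this SD was 0.172. Whether a ratio overlaps thus does not show which genes moved with Ccn2. The share of such ratios over all genes was not counted. The ratio to Ccn1 ranged from 4.71 to 7.48 in the training and from 3.16 to 5.62 in the sedentary hearts, and training heart 5 and sedentary heart 4 were the hearts that crossed. For Amotl2 the ranges were 5.83 to 9.37 and 3.97 to 6.52, and for Ankrd1 they were 0.131 to 0.198 and 0.0908 to 0.163. The ratios to Ccn3, Ccn4 and Ccn5 overlapped broadly. These ratios carry the same difference of Ccn2 by which the list was chosen and were not tested.

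**Figure D4:**
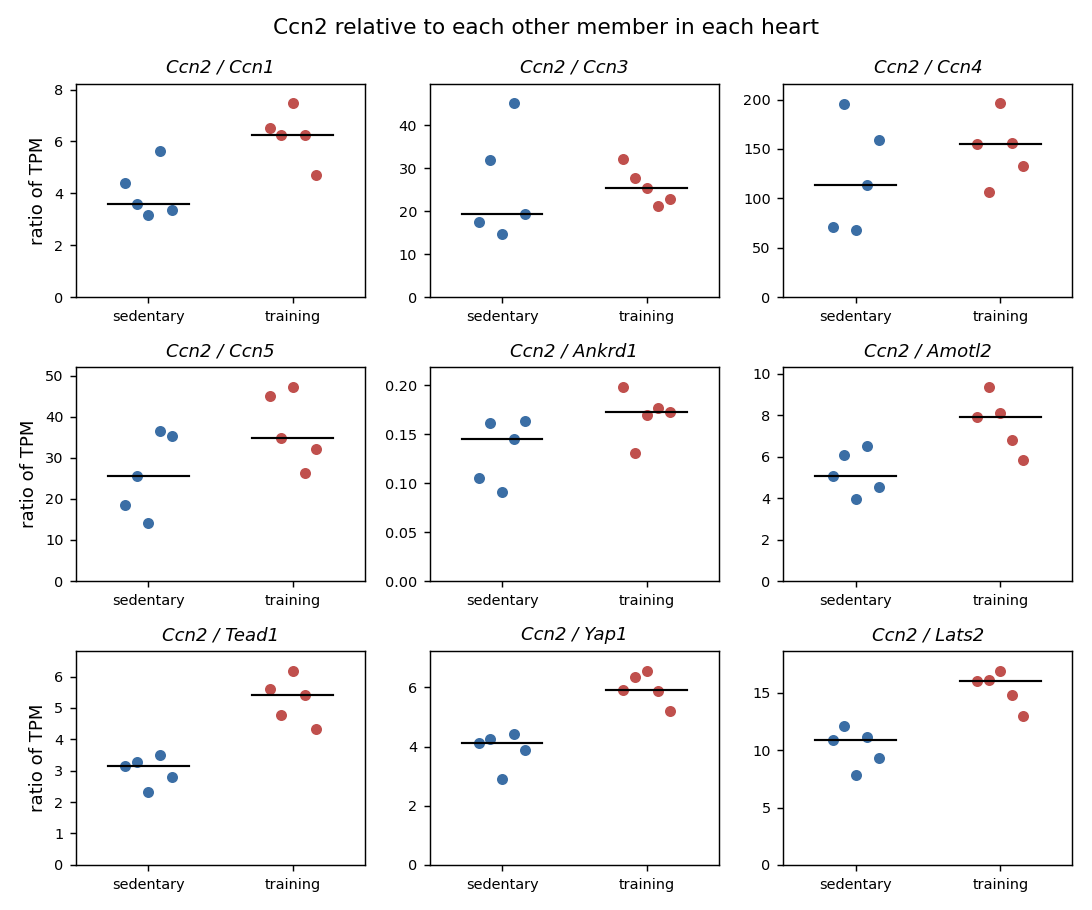
Ratio of the TPM of Ccn2 to that of each other member in each heart, with the median of each group as a black bar (n = 5 per group). The ratios to Tead1, Yap1 and Lats2 separate the groups, and the ratios to the other 6 members overlap.

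Whether the members vary together from heart to heart is a question that the choice of the list did not touch. Log2 CPM were centred within each group and each member was correlated with Ccn2 over the 10 hearts, with exact two-sided permutations of the hearts within the groups and adjustment over the 9 pairs. Lats2 had the highest correlation (r = 0.73, exact p = 0.0386, adjusted p = 0.348, rho = 0.61, exact p = 0.0889, adjusted p = 0.80). Without sedentary heart 3 and training heart 3, the hearts farthest from the median of Ccn2, r fell to 0.43 and rho to 0.10 for Lats2. The relation thus rests on these hearts. With the RSEM expected counts of all hearts, r was 0.42. Yap1 came next (r = 0.56, exact p = 0.119, adjusted p = 0.537, rho = 0.48, exact p = 0.188, adjusted p = 0.846), and was at 0.57 without the same hearts. The other 7 members had r between −0.29 for Ccn5 and 0.30 for Tead1, with Ccn1 at −0.07, Ankrd1 at 0.29 and Amotl2 at 0.16 (exact adjusted p between 0.768 and 0.887). Their rho lay between −0.18 and 0.38 (exact adjusted p between 0.888 and 0.986). No pair passed after adjustment, either by r or by rho. Over the 8496 genes that averaged 10 CPM or more, r was at least as high as that of Lats2 for 0.400% and at least as high as that of Yap1 for 3.27%. For the other 7 members this share lay between 18.3% for Tead1 and 83.3% for Ccn5.

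The 5 other genes whose centred levels followed Ccn2 most closely were Klhl2 (r = 0.92), Manba (r = 0.90), Yaf2 (r = 0.88), Gkap1 (r = 0.87) and Agap1 (r = 0.87). This is a description over 10 hearts that share their depth and scaling. The genes were picked as the highest of 8496 compared, so no link to Ccn2 is read from them. None of them passed an FDR below 0.1 in edgeR, with Klhl2 the closest (adjusted p = 0.106). Their log2 fold changes lay between −0.22 for Klhl2 and 0.12 for Manba.

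Individual hearts were not uniformly high or low. Training heart 3 was the highest of all 10 for Ccn2, Amotl2, Yap1 and Lats2, training heart 4 for Ccn3 and Ccn5, and training heart 2 for Ankrd1. The highest values of Ccn1, Ccn4 and Tead1 were found in sedentary hearts. Sedentary heart 3 was the lowest for Ccn2 alone, and sedentary hearts 1, 2, 4 and 5 were each the lowest for 2 other members. Tead1 was lowest in training heart 1. Training heart 3 had the highest atrial score (0.64) and the highest fibroblast score (0.34) of the 10 hearts, on the scale of the mean centred log2 CPM of the marker lists described below.

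The wider set of YAP and TAZ targets was examined with a signature of 22 genes, all of them tested, of which 5 are members. Outside the members, 11 of 17 genes lay above 0 and 6 below, with a median log2 fold change of 0.10, and 0 of 17 passed at an FDR below 0.1 in edgeR's quasi-likelihood test. At an unadjusted p below 0.05 there were 4 higher and 2 lower genes, and DESeq2 called 3 higher (Axl, Ptpn14 and Tgfb2) and 1 lower (Nt5e). The smallest p-values were those of Axl, a receptor tyrosine kinase, and Ptpn14, a phosphatase that binds YAP. Axl measured 129 ± 9.64 CPM after training compared with 115 ± 6.73 CPM without (SD, n = 5 each), which gave a log2 fold change of 0.17 with SE 0.056 (adjusted p = 0.113 by edgeR). Ptpn14 measured 71.7 ± 2.60 and 65.2 ± 3.47 CPM, with a log2 fold change of 0.14 ± 0.045 (SE) and an adjusted p of 0.113 by edgeR. Their calls thus depended on the tool, and the 95% interval of Axl ran from 0.05 to 0.29. With the members, 15 of the 22 genes lay above 0, the median was 0.12, and Ccn2 alone passed.

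Of the 10 genes of YAP, TAZ, the TEAD factors and the VGLL cofactors 8 were tested. Tead3 was lower after training (20.2 ± 0.641 compared with 22.7 ± 1.22 CPM, log2 fold change −0.17, SE 0.049, adjusted p = 0.0778 by edgeR), and its groups did not overlap. It kept this call in 3 of the 10 fits that left out 1 heart, with an adjusted p of up to 0.156 in the same edgeR test, and lost it without training heart 1, 3, 4 or 5 or sedentary heart 2, 3 or 5. Tead3 also did not pass in edgeR with library totals alone (adjusted p = 0.22), without a filter on low counts (adjusted p = 0.114) or with the mouse number as a block (adjusted p = 0.103). The YAP paralogue Wwtr1, which encodes TAZ, was at 0.02 ± 0.043 (log2 fold change ± SE), Tead2 at 0.13 and Tead4 at −0.18, and none of these passed. Of the 24 genes of the Hippo kinase module and its upstream regulators 1 was higher and 1 was lower. Frmd6, a FERM domain protein upstream of the kinases, rose from 33.6 ± 2.23 to 41.2 ± 2.66 CPM without overlap (log2 fold change 0.29, SE 0.057, adjusted p = 0.0195 by edgeR), and passed whichever heart was left out (10 of 10 fits). Amot, the angiomotin related to Amotl2, fell from 24.3 ± 1.60 to 19.0 ± 3.22 CPM (log2 fold change −0.35, SE 0.098, adjusted p = 0.0653 by edgeR) and passed in 5 of those 10 fits, losing its call without training heart 4 or 5 or sedentary heart 2, 3 or 4, and with library totals alone (adjusted p = 0.119 by edgeR). The kinase genes Stk3, Stk4 and Lats1 had log2 fold changes of 0.06, 0.05 and −0.01 and did not pass.

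No CCN receptor gene and no other muscle ankyrin repeat gene passed the threshold. Of 11 receptor genes, integrin subunits among them, 6 lay above 0 and 5 below with 0 called by edgeR or DESeq2 and 1 at an unadjusted p below 0.05, and the smallest p-values were those of Itgb5 (log2 fold change 0.12, adjusted p = 0.182 by edgeR) and Lrp6 (0.09, adjusted p = 0.26 by edgeR). Ankrd2 and Ankrd23, the paralogues of Ankrd1, had log2 fold changes of −0.06 and −0.07 with an adjusted p of 0.926 and 0.778 in edgeR's test, and 0 of these 2 genes reached an unadjusted p below 0.05 or a call by DESeq2.

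Ccn2 and Ankrd1 are known to respond to other pathways as well, whose genes were counted in the same way. Among 10 TGF-beta ligands and SMAD targets 7 lay above 0 and 3 below, with a median of 0.16. None of the 10 was called higher by edgeR, and DESeq2 called Tgfb2 higher. Among 17 genes of SRF, the MRTF coactivators and their targets, 4 lay above 0 and 13 below. The smooth muscle genes Cnn1 (0.75, adjusted p = 0.0829) and Tagln (0.54, adjusted p = 0.0618) were higher and Mrtfb (−0.16, adjusted p = 0.0788) and Acta1 (−0.84, adjusted p = 0.0935) were lower in edgeR's test. Acta1 did not pass in DESeq2 (adjusted p = 0.139), nor in edgeR with RSEM counts (adjusted p = 0.108) or with library totals alone (adjusted p = 0.105). Mrtfb did not pass in edgeR with library totals alone (adjusted p = 0.191), nor Tagln with the counts of both strands (adjusted p = 0.207). Of 17 immediate early genes 0 passed in edgeR or DESeq2 and 4 had an unadjusted p below 0.05, the smallest p-values being those of Atf3 (−0.68, adjusted p = 0.179 by edgeR) and Egr3 (0.55, adjusted p = 0.18 by edgeR). When 1 heart was left out, Tagln lost its call without training heart 3, 4 or 5 or sedentary heart 2 or 4. Cnn1 kept its call in 3 of 10 such fits (without training heart 1 or 2 or sedentary heart 1). Mrtfb kept it in 2 of 10 (without sedentary heart 1 or 2) and Acta1 in 1 of 10 (without training heart 2). These 4 genes, and Tead3, Frmd6 and Amot as well, did not pass with the atrial or with the fibroblast score as a covariate, but their log2 fold changes differed in how far they moved. Cnn1 went to 0.35 with the atrial and 0.22 with the fibroblast score, and Tagln to 0.42 and 0.23. Amot was at −0.36 and −0.42, Frmd6 at 0.28 and 0.23, Acta1 at −0.67 and −0.89, Mrtfb at −0.21 and −0.15, and Tead3 at −0.10 and −0.16 in the same fits.

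Of 14 circadian clock genes 5 were higher and 3 were lower, which is given here because a score of these genes was used as a covariate. Bmal1 fell most (log2 fold change −1.19, adjusted p = 0.0154 by edgeR), with Clock at −0.30 and Npas2 at −0.47, while Per3 was at 0.80, Nr1d2 at 0.43 and Cry2 at 0.33 on the log2 scale. When 1 heart was left out, Bmal1, Clock, Per3 and Nr1d2 passed in 10 of 10 fits, Cry2 in 7 and Npas2 in 5. Npas2 did not pass with library totals alone or with the clock score. With the atrial score as a covariate Bmal1 alone of the 14 genes passed. The hour of tissue collection is not given in the sources used here. The clock score was the mean centred log2 CPM of all 14 genes, so genes that rose and genes that fell cancel in it. Its values overlapped between the groups (−0.10 to 0.20 in training and −0.33 to 0.18 in sedentary hearts). With this score as a covariate Bmal1 was still at −0.88 and Per3 at 0.65, so the fit left much of the clock difference in place. In the same fit Ccn2 was at 0.63 and kept its call, and Ccn3 (0.65) and Ankrd1 (0.43) passed as well. The part of the clock in these results was not tested.

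Atrial and fibroblast markers lay mostly higher in the training hearts, but their scores overlapped between the groups. The lowest atrial scores were those of sedentary hearts 2 (−0.90) and 5 (−0.76). Sedentary heart 1 (0.29) lay above training hearts 2 (0.04) and 5 (0.20). The lowest fibroblast scores were those of sedentary hearts 2 and 4 (−0.24 each). All 8 atrial cardiomyocyte markers lay above 0, with a median log2 fold change of 0.49 and 4 of 8 called (Sln, Stard10, Dkk3 and Kcnj3), and they summed to between 6880 and 10270 TPM in the training and between 3521 and 9177 TPM in the sedentary hearts. Of 8 fibroblast markers 7 lay above 0, with a median of 0.20 and 3 of 8 called (Lum, Pdgfra and Gsn), and they summed to between 1243 and 1702 TPM and between 1046 and 1308 TPM. None of these markers was at 0 in the hearts. The 7 epicardial markers all lay above 0 with 0 called by edgeR or DESeq2 and 0 at an unadjusted p below 0.05. Cardiomyocyte markers lay below 0 in 8 of 8 with Actc1 called lower, endothelial markers in 6 of 8 with Tie1 and Esam lower, macrophage markers in 6 of 8 with 0 called by either tool or at an unadjusted p below 0.05, and of 8 mural markers Rgs5 was lower. Of 7 adipocyte markers 6 lay above 0, and Fabp4 was called lower. The marker calls named here are those of edgeR. DESeq2 called 3 cardiomyocyte markers lower (Myh6, Actc1 and Ryr2) and 4 fibroblast markers higher (Lum, Pdgfra, Tcf21 and Gsn). For the other marker lists it called the same genes as edgeR.

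The members answered differently when these scores entered the fit. With the atrial score as a covariate the log2 fold change of Ccn2 was 0.60 (SE 0.16, 95% interval 0.27 to 0.94), and with the fibroblast score it was 0.64 (SE 0.15, 95% interval 0.31 to 0.97). Its size was thus nearly kept, but its error grew, and it no longer passed the threshold in either fit. Those fits called 62 and 64 genes in all, compared with 1084 without a covariate. Ankrd1 dropped from 0.30 to 0.08 with the atrial score and to 0.12 with the fibroblast score. Ccn3 was at 0.34 with the atrial score (95% interval −0.20 to 0.87) and at 0.10 with the fibroblast score (95% interval −0.24 to 0.44). Ccn4 and Ccn5 turned below 0 in both fits. Amotl2 went from 0.14 to 0.09 with the atrial score and to 0.04 with the fibroblast score. Ccn1 reached 0.24 with the atrial score, with a 95% interval of 0.06 to 0.41 that lay above 0, and did not pass the threshold. With the fibroblast score Ccn1 was at 0.05 (95% interval −0.20 to 0.31). The scores lay mostly higher in the training hearts, with overlap, so a covariate also takes up part of the group difference. The part of atrial or fibroblast RNA in the members' values was not tested further.

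**Figure D5:**
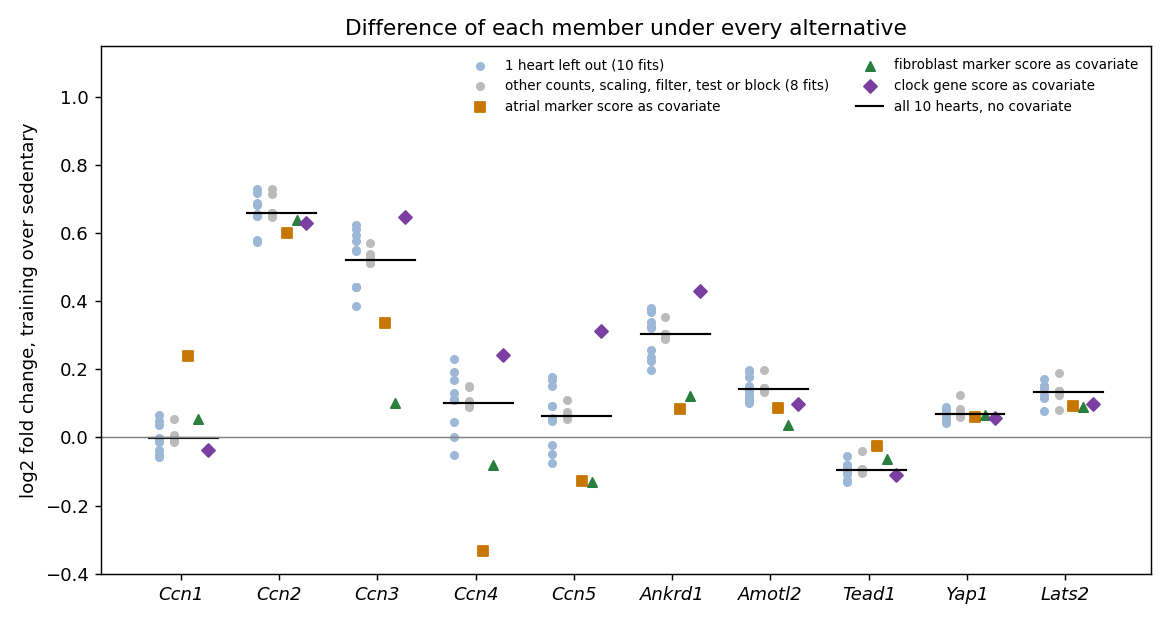
Log2 fold change of each member with all hearts and no covariate (black bar) and under each of 21 alternatives, which are the 10 fits without 1 heart, 8 fits with other counts, scaling, filters, tests or a replicate block, and 3 fits with a marker or clock score as a covariate. Ccn2 stays between 0.57 and 0.73 throughout, whereas Ccn3 ranges from 0.10 to 0.65 and Ankrd1 from 0.08 to 0.43.

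Ccn2 kept its call in 19 of 21 alternatives, including all 10 fits without 1 of the hearts, where its log2 fold change lay between 0.57 without training heart 3 and 0.73 without sedentary heart 4. Ccn3 passed in 4 of 21, among them the fits without training heart 1 (0.61) and without sedentary heart 1 (0.62). Ankrd1 passed in 1 of 21, and the other 7 members passed in 0.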

How the data were processed

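Whole-heart RNA from 5 training and 5 sedentary mice was made into directional poly-A libraries and sequenced in 1 pool with single reads. Raw counts per gene and strand, made by STAR 2.7.10a on GRCm39 from reads with a unique match, were deposited by the authors. The authors also deposited expected counts, TPM and effective lengths per gene from RSEM 1.3.3, whose strand setting is not given in the sources used here.

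Reverse-strand counts were analysed, without the lines that are no gene. Reads mapping to several places (17.9% to 19.2% of all reads) and reads on several genes (0.940% to 0.998%) are not counted, so overlapping genes can lose reads. GENCODE M39 symbols were joined to 56017 of the 56748 identifiers. Groups were taken from the labels and compared by the quasi-likelihood F test of edgeR 4.0.16 (R 4.3.3) after filterByExpr and TMM, with Benjamini-Hochberg adjustment over all tested genes and an FDR below 0.1. Standard errors and 95% intervals come from this fit. CPM were scaled by TMM, and logarithms of CPM were taken with a prior count of 2. Rounded expected counts and DESeq2 1.42.0 were alternatives, and DESeq2 is the tool the study used. Exact permutation tests were made in Python 3.11.15 with scipy 1.17.1. The edgeR step was tested on simulated data. Replicates are separate hearts.

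The members, the 10 pathway lists and the 8 marker lists were chosen with earlier results of these data known. Named genes were the members, of each pathway list all genes called (at most 6 by p, or the 2 with the smallest p where none was called), and the 5 genes with at least 10 CPM most correlated with Ccn2. Of these, 1 gene is not reported here. Wwtr1, Tead2, Tead4, Stk3, Stk4, Lats1, Tgfb2, Nt5e, Foxf2 and Igfbp3 and the markers named were added after their values were seen. The alternatives are given at the end. The fibroblast score as a covariate was added after seeing the data.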

Additional observations from a re-analysis of the deposited data

Results flagged for a closer look

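In each group of 5 hearts the highest and lowest value of each member was compared with its neighbour by Dixon's criterion. This was done in 20 groups, and chance alone sets apart about 1 in 20. In 3 groups a heart stood apart. Ccn4 was at 6.07 CPM in training heart 2 while the other training hearts lay between 4.84 and 5.17 CPM. Yap1 was at 110.8 CPM in training heart 3, and the other training hearts lay between 100.3 and 103 CPM. Lats2 was at 25.51 CPM in training heart 3 as well, where the others lay between 21.07 and 21.39 CPM. Training heart 3 was also the highest of all hearts for Ccn2 and Amotl2, and it had the highest atrial and fibroblast scores. Without it the log2 fold changes were 0.57 for Ccn2, 0.04 for Yap1 and 0.08 for Lats2.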

How the results depend on the processing

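Ccn2 passed in 19 of 21 refits, with a log2 fold change between 0.57 and 0.73 over the fits that left out 1 heart. It did not pass with the atrial score (0.60) or, as an alternative added after seeing the data, the fibroblast score (0.64) as a covariate. The number of members called higher was therefore 0 in both of these fits. It was 2 without a filter on low counts (Ccn2 and Ccn3), 3 with the clock score (Ccn2, Ccn3 and Ankrd1), and between 1 and 2 when 1 heart was left out. No member was called lower in any fit. The other pathway lists held 16 called genes, 1 with the atrial score, 5 with the fibroblast score, 27 with the clock score, 5 at an FDR below 0.05, and between 5 and 19 when 1 heart was left out. Of 189 refits of the other 9 members, 3 moved by more than the spread between hearts, 5 came to pass and 0 reversed a call; values near 0 changed sign, for Ccn1 in 8 refits. The median of the signature lay between 0.09 and 0.17 in all refits. With library totals alone the median of all genes shifted by 0.05, and 1029 genes were called higher and 339 lower, compared with 425 and 659.

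Mouse numbers are shared by the groups, but residuals of same-numbered hearts correlated by −0.10, 0.16, 0.08, 0.02 and 0.16, so the numbers were not taken as pairs. With the mouse number as a replicate block Ccn2 was at 0.66 and 1137 genes were called, compared with 1084.

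With 5 hearts per group the intervals of Ccn3, Ccn4 and Ccn5 are wide, and these genes rest on 90 to 837 reads per library. Levels of YAP protein and cell types were not measured.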
